A study of Homo sapiens with 6 samples.

Results

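The mRNAs of 10 microRNA pathway proteins were followed in Mono-mac-6, an established line of human monocytic acute myeloid leukemia (AML) with an MLL-AF9 fusion. They encode the Argonautes (AGO1, AGO2, AGO3 and AGO4), the GW182 proteins (TNRC6A, TNRC6B and TNRC6C) and the processing factors DICER1, DROSHA and DGCR8. The genes were chosen by symbol, and all 10 were found among the 18806 symbols of the expression table. A single Cas9-expressing clone of the line had received 1 of 3 lentiviral guides: sgNS, a control guide, or sgDDX6.1 or sgDDX6.2, both aimed at DDX6, an RNA helicase of mRNA decay and translational repression. Each guide had 2 libraries of poly(A)+ RNA, 6 in all, so every group shares the clone, the Cas9 transgene and the drug selection. Harvest was at 8 days after infection per the labels, although a selection of 1 to 2 weeks is also stated, which leaves the day uncertain.

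MicroRNAs guide Argonaute proteins to partly complementary sites in mRNAs. DROSHA and its RNA-binding partner DGCR8 cut the primary transcript in the nucleus, DICER1 cuts the resulting hairpin in the cytoplasm, and 1 strand is loaded into an Argonaute. GW182 proteins bind the loaded Argonaute through tryptophan repeats and recruit the CCR4-NOT and PAN2-PAN3 deadenylases, and the CCR4-NOT scaffold CNOT1 in turn binds DDX6. The question addressed here is how the mRNAs of the factors upstream of DDX6 stood when DDX6 was targeted.

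Several of these genes are themselves tied to microRNAs, and the sequences below show how. The mature let-7a microRNA is shown because let-7 is known to target DICER1, and miR-3618 and miR-1306 are shown because they lie inside the DGCR8 mRNA, which the DROSHA-DGCR8 complex is known to cut. Sequences are from RefSeq on GRCh38.p14, 5′ to 3′, with the seed (bases 2 to 8) in capitals.
hsa-let-7a-5p: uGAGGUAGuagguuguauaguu
hsa-miR-3618: uGUCUACAuuaaugaaaagagc
hsa-miR-1306-5p: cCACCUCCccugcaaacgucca
hsa-miR-1306-3p: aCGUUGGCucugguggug
let-7a-5p is read here from its copy at chr9:94175962-94175983 (plus strand). Both DGCR8 microRNAs lie on the plus strand in exon 2 of the DGCR8 transcript with the longest coding region in GENCODE release 29 (GRCh38). miR-3618, at chr22:20085797-20085818, lies before the coding start. miR-1306-5p, at chr22:20086072-20086093, and miR-1306-3p, at chr22:20086112-20086129, lie in coding sequence.

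The letters CTACCTC, which pair with the let-7 seed, were sought on the sense strand of DICER1 and occurred 4 times in its coding region of 5766 bases and 0 times in its 3′ UTR of 4270 bases. Each match is shown with its flanking bases, the 7 paired letters in capitals, numbered from the first coding base.
DICER1 coding bases 2635 to 2641: atactgtgttCTACCTCttaat
DICER1 coding bases 3641 to 3647: gtgcaaccaaCTACCTCatatt
DICER1 coding bases 3749 to 3755: gctaacaaatCTACCTCagatg
DICER1 coding bases 5139 to 5145: cgattttggaCTACCTCataac
Of 2450 coding regions between 0.5 and 2 times this length, 30.57% held a match and 0.37% held as many as DICER1. Elsewhere among the 10 genes, the 3′ UTR held 2 matches in AGO2, 1 in AGO1 and 1 in AGO3, and the coding region 2 in TNRC6C and 1 in AGO3. Among 3′ UTRs of like length the share with a match was 40.6% for AGO2, 38.6% for AGO1 and 48.3% for AGO3, and 19.6% for DICER1. These are letter matches and not measured sites, and microRNAs themselves were not measured.

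AGO4, AGO1 and AGO3 lie in that order on the plus strand of chromosome 1, and AGO1 and AGO4 turned out to be the 2 genes with the largest changes, in opposite directions. AGO4 spans 35808172 to 35857890, AGO1 35869808 to 35930528 and AGO3 35930718 to 36072500 (GRCh38, GENCODE release 29). AGO4 and AGO1 are 11917 bases apart and AGO1 and AGO3 only 189. The 250 bases before the RefSeq start are shown for both genes, with matches to a GC box (GGGCGG) and a CCAAT box (CCAAT), on either strand, in capitals.
AGO1, chr1:35882959-35883208, plus strand: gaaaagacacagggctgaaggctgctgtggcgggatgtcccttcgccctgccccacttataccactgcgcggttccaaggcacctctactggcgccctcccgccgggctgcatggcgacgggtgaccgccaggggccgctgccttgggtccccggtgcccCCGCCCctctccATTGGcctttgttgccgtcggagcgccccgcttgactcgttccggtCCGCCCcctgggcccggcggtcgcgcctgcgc
AGO4, chr1:35807766-35808015, plus strand: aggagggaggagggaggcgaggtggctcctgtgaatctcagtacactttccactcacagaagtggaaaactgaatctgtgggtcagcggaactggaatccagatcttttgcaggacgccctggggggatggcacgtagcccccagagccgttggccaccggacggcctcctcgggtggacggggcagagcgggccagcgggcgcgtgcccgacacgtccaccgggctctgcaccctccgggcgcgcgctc
The AGO1 window lies inside the span that GENCODE gives the gene, which starts farther upstream. It held 2 GC boxes and 1 CCAAT box, which do not overlap, and the AGO4 window held 0 of each. Of 35116 windows of this length in the RefSeq table, 42.64% held a GC box and 32.01% a CCAAT box. TGACGTCA (a cAMP response element, 1.65% of windows), TGATGNAA (a C/EBP-ATF element, 3.14%) and CACGTG (an E-box, 6.34%) had 0 matches in both windows. The windows held 25 CpG pairs in AGO1 and 20 in AGO4, beside a median of 11 over all windows. GC boxes also lay in the windows of AGO3, TNRC6B and DGCR8 (2 each) and of TNRC6A and DROSHA (1 each). CCAAT boxes numbered 5 in TNRC6B, 4 in DGCR8, 3 in DROSHA, 1 in TNRC6A and 0 in AGO3. DICER1 and TNRC6C have several RefSeq starts each. A DICER1 window held at most 1 GC box and 1 CCAAT box, and a TNRC6C window at most 2 of each. Some windows of both genes held 0 of either box. An E-box lay in 1 TNRC6C window and a C/EBP-ATF match in another.

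The other genes lie apart from each other, except for a shared chromosome 22. AGO2 lies at 140520156 to 140635619 on the minus strand of chromosome 8. TNRC6A lies at 24610209 to 24827632 on chromosome 16 (plus), TNRC6C at 77959240 to 78108835 on chromosome 17 (plus) and TNRC6B at 40044817 to 40335808 on chromosome 22 (plus). DICER1 lies at 95086228 to 95158010 on chromosome 14 (minus), DROSHA at 31400497 to 31532196 on chromosome 5 (minus) and DGCR8 at 20080232 to 20111877 on chromosome 22 (plus). Most have long mRNAs. The transcript with the longest coding region ran from 4514 bases (DGCR8) to 19687 bases (AGO3), against a median of 2993 over the genes tested. Between 73.3% of tested genes (for DGCR8) and 99.9% (for AGO3) had a shorter one. Exons of DGCR8 overlap those of TRMT2A on the other strand, TNRC6C and DICER1 overlap TNRC6C-AS1 and DICER1-AS1, and AGO1 and AGO3 each overlap a noncoding gene on the other strand (AL139286.2 and AL138787.2). AGO2 overlaps AC067931.1 on its own strand. Whether the counting used strand is not given in the sources used here.

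The libraries parted by DDX6 as labelled, with 102.12 and 99.5 TPM (a gene's share of a library's transcripts, corrected for length) in sgNS and between 51.97 and 54.41 TPM in the 4 sgDDX6 libraries. For both guides together this was a log2 fold change of -0.91 (SE 0.04, limma adjusted p = 4.61e-09). A guide cuts DNA, so remaining mRNA is no measure of protein. Replicate libraries correlated across genes at a Pearson r of 0.998, as a description. Of 13 markers of monocytic AML, 11 had at least 1 TPM in every library, among them LYZ, CD33, MPO and SPI1. CD14, a defining monocyte marker, was between 0.37 and 1.36 TPM. The summed level of the 13 markers was 14324 to 14810 TPM in sgNS and 26109 to 26851 TPM in the sgDDX6 libraries. LYZ, S100A8 and S100A9 made up most of that sum and were higher in every sgDDX6 library than in both sgNS libraries. So were CD68, SPI1, FCER1G, TYROBP and CSF1R, while CD33 overlapped. MPO, a granule enzyme, was lower, with 79.73 and 86.71 TPM in sgNS and 28.99 to 41.51 TPM in the sgDDX6 libraries. ITGAM was also lower, at 3.88 and 4.53 against 2.72 to 3.61 TPM. CD14 was at most 0.97 TPM in the sgDDX6 libraries, and PTPRC was lower than in sgNS with sgDDX6.1 and higher with sgDDX6.2. The part of these markers in the results below was not tested. T cell markers summed to at most 0.26 TPM, B cell markers to at most 5.23, erythroid markers to at most 1.47 and fibroblast markers to at most 0.16. Epithelial markers summed to 11.35 to 21.07 TPM, most of it KRT18 (10.75 to 19.82 TPM). In bulk RNA, fewer cells of a kind and less of an mRNA per cell cannot be told apart.

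Over both guides, AGO1, TNRC6A and DROSHA rose and AGO4 and AGO2 fell, while the other 5 genes did not pass the test. The largest change, that of AGO1, was 1.39-fold on the log2(TPM + 1) scale. A gene is said to rise or fall, or to be called, where the Benjamini-Hochberg adjusted p of limma, over the 11151 genes tested, was under 0.05. By this rule 5 of the 10 genes were called, 3 higher and 2 lower, beside 66.7% of all genes tested, 33.8% higher and 32.9% lower. The share of the 10 genes that changed was thus not above that of the whole table. Their median size of change was 0.14 on the log2 scale, against 0.23 over all genes tested, and their median log2 fold change was 0.01, against 0.0008. All 10 passed the filter on low values. In 7 of the 10 the sgNS range and the range of the 4 sgDDX6 libraries did not overlap, beside 63.4% of all genes tested. Of these, 4 were above sgNS (31.5% of all genes) and 3 below (31.9%). Nothing in the labels says whether a guide's 2 libraries were grown apart. The p-values measure only the spread between them, which may be technical.

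**Figure D1:**
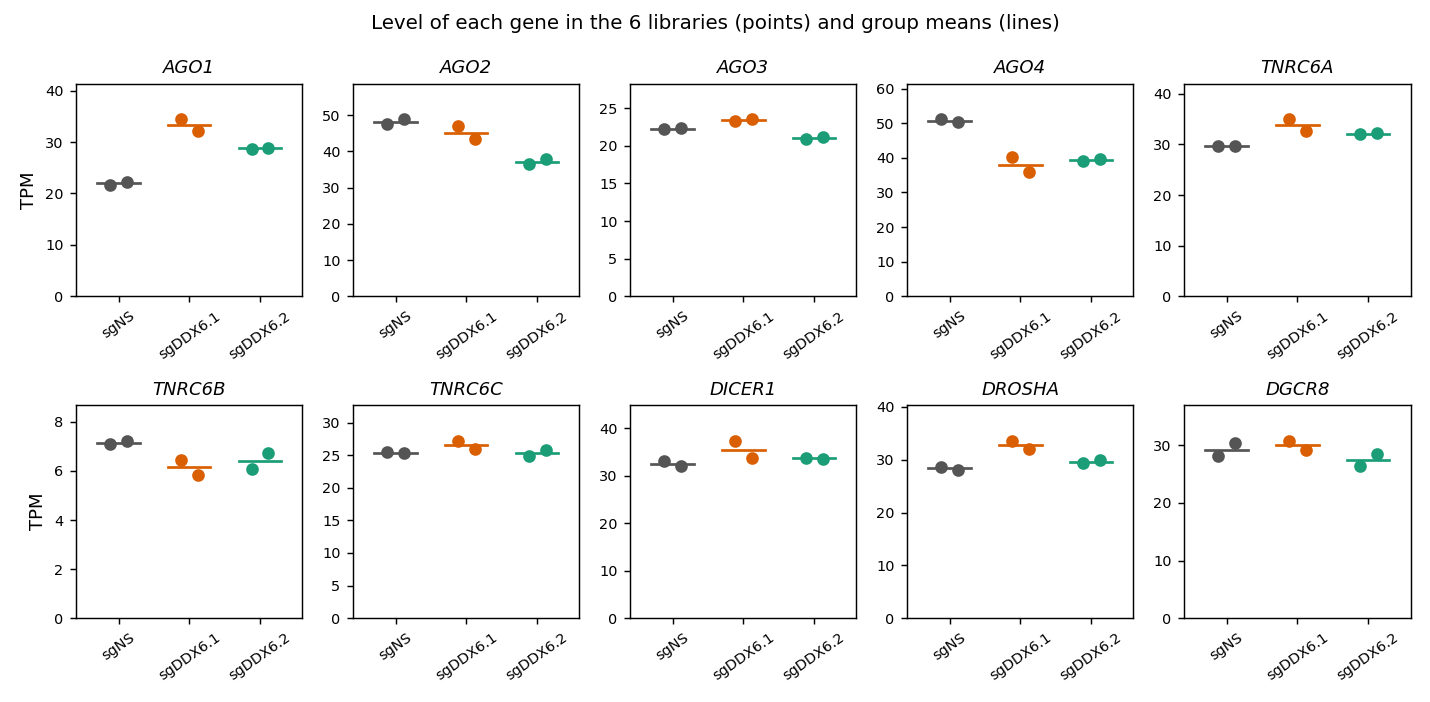
Level of each of the 10 genes in TPM (y axis, from 0) in the 2 libraries of each guide (points) with the group mean (line). AGO1 stands higher and AGO4 lower in all 4 sgDDX6 libraries than in both sgNS libraries, and AGO2 is lowest with sgDDX6.2.

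Among the Argonautes, AGO1 rose with both guides. AGO1, which binds microRNAs and represses their targets, had 21.69 and 22.30 TPM in sgNS, 34.46 and 32.13 in sgDDX6.1, and 28.72 and 28.77 in sgDDX6.2. Every sgDDX6 library lay above both sgNS libraries, and the sgDDX6.1 libraries lay above the sgDDX6.2 libraries. The log2 fold change was 0.47 over both guides (SE 0.05, adjusted p = 6.75e-06), 0.58 with sgDDX6.1 (adjusted p = 6.1e-06) and 0.37 with sgDDX6.2 (adjusted p = 0.000171). Of the genes tested, 80.7% had a smaller change in either direction over both guides.

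AGO4, its neighbor on chromosome 1, fell with both guides. It had 51.18 and 50.36 TPM in sgNS, 40.22 and 35.80 in sgDDX6.1, and 39.15 and 39.74 in sgDDX6.2. All 4 sgDDX6 libraries lay below both sgNS libraries, and the libraries of the 2 DDX6 guides overlapped. The log2 fold change was -0.38 over both guides (SE 0.05, adjusted p = 4.79e-05), -0.41 with sgDDX6.1 (adjusted p = 0.000108) and -0.36 with sgDDX6.2 (adjusted p = 0.000291).

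AGO2, the Argonaute best known for cutting its target RNA, was lowest with the second DDX6 guide. It had 47.48 and 48.93 TPM in sgNS, 46.89 and 43.34 in sgDDX6.1, and 36.49 and 37.94 in sgDDX6.2. The sgDDX6.2 libraries lay apart from the rest, whereas the nearest sgNS and sgDDX6.1 libraries were less than 1 TPM apart. Over both guides it fell by 0.23 on the log2 scale (SE 0.05, adjusted p = 0.00131) and with sgDDX6.2 by 0.36 (adjusted p = 0.000139). After a length trend was removed the value over both guides was -0.12 and still called (adjusted p = 0.0174). With sgDDX6.1 the log2 fold change was -0.09 and was not called (adjusted p = 0.162, 95% interval -0.22 to 0.03).

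AGO3 was near its sgNS level with either guide. It had 22.19 and 22.34 TPM in sgNS, 23.36 and 23.55 in sgDDX6.1, and 20.97 and 21.20 in sgDDX6.2. The sgDDX6.1 libraries lay above sgNS and the sgDDX6.2 libraries below, so over both guides the log2 fold change was -0.0016 (95% interval -0.11 to 0.11, adjusted p = 0.981). Neither guide alone was called (0.07, adjusted p = 0.294, and -0.08, adjusted p = 0.27). After a trend on transcript length or on GC content was removed from each library, AGO3 was called higher over both guides (0.14 in each case, adjusted p = 0.0233 and 0.0229) and with sgDDX6.1 (0.21 and 0.19, adjusted p = 0.00805 and 0.0121).

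The proportions of the Argonaute mRNAs to each other thus changed. Within a library a ratio of 2 genes does not depend on how TPM is scaled. The AGO1 to AGO4 ratio was 0.424 and 0.443 in sgNS, 0.857 and 0.897 in sgDDX6.1, and 0.734 and 0.724 in sgDDX6.2. The AGO1 to AGO2 ratio was 0.457 and 0.456 in sgNS, 0.735 and 0.741 in sgDDX6.1, and 0.787 and 0.758 in sgDDX6.2. Both ratios were higher in every sgDDX6 library than in both sgNS libraries. The AGO2 to AGO4 ratio was 0.928 and 0.972 in sgNS and 0.932 and 0.955 in sgDDX6.2, which overlapped, and was 1.17 and 1.21 in sgDDX6.1. AGO1 made up 15.4% ± 0.196 (SD, n = 2) of the summed Argonaute TPM with sgNS, 23.8% ± 0.0387 with sgDDX6.1 and 22.7% ± 0.267 with sgDDX6.2. AGO4 made up 35.4% ± 0.648, 27.2% ± 0.847 and 31.2% ± 0.0746. The sum itself was 143 ± 0.983 TPM with sgNS, 139.9 ± 7.15 with sgDDX6.1 and 126 ± 1.64 with sgDDX6.2. The sgDDX6.1 sums, 144.93 and 134.82 TPM, lay on either side of the sgNS sums of 142.54 and 143.93 TPM, and those of sgDDX6.2 lay below all others. No test was made on ratios, shares or sums.

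**Figure D2:**
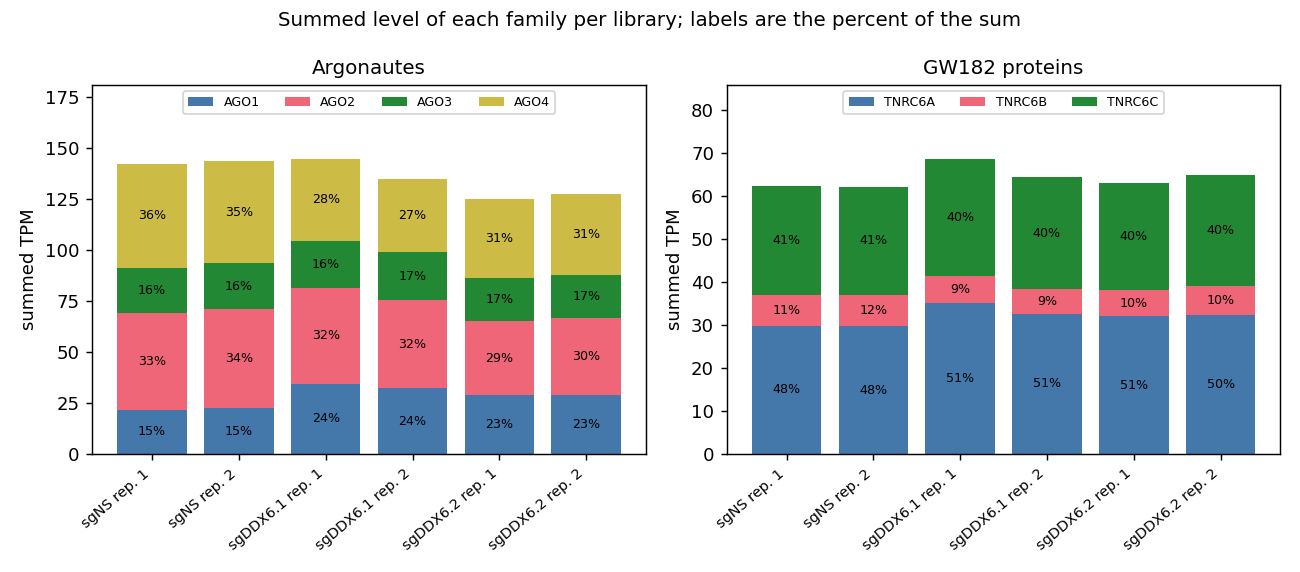
Summed TPM (y axis, from 0) of the 4 Argonautes (left) and the 3 GW182 genes (right) in each of the 6 libraries, with each gene's percent of the sum. The AGO1 part is larger and the AGO4 part smaller in all sgDDX6 libraries, while the GW182 parts differ less.

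Of the 3 GW182 genes, TNRC6A was called over both guides and TNRC6B and TNRC6C were not. TNRC6A, the founding GW182 protein, had 29.74 and 29.66 TPM in sgNS, 35 and 32.57 in sgDDX6.1, and 31.96 and 32.32 in sgDDX6.2, each sgDDX6 library above both sgNS libraries. It rose by 0.14 over both guides (SE 0.05, adjusted p = 0.021) and by 0.18 with sgDDX6.1 (adjusted p = 0.0163). After a length trend was removed the rise over both guides was 0.22. With sgDDX6.2 the log2 fold change was 0.11 and was not called (adjusted p = 0.107), although it was under median centring (0.13, adjusted p = 0.0391) and quantile normalization (0.13, adjusted p = 0.0393), and after a length or GC trend was removed (0.20 and 0.16, adjusted p = 0.00245 and 0.0053). The call over both guides was lost without sgNS replicate 1, sgNS replicate 2, sgDDX6.2 replicate 1 or sgDDX6.2 replicate 2 (adjusted p = 0.0776, 0.0823, 0.0503 and 0.0623), at log2 fold changes of 0.14 to 0.15. The call with sgDDX6.1 was lost without either sgNS library or without sgDDX6.1 replicate 1 (adjusted p = 0.0506, 0.0542 and 0.0814).

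TNRC6B was the least abundant of the 10 genes, with 7.09 and 7.23 TPM in sgNS, 6.45 and 5.84 in sgDDX6.1, and 6.09 and 6.73 in sgDDX6.2. All sgDDX6 libraries lay below both sgNS libraries. The log2 fold change of -0.17 was not called (SE 0.07, adjusted p = 0.0645). It was called without sgDDX6.1 replicate 1 (-0.20, adjusted p = 0.0411) and without limma's variance trend (adjusted p = 0.038). Over all alternatives it lay between -0.20 and -0.034, the last after a length trend was removed (adjusted p = 0.647). TNRC6C had 25.41 and 25.27 TPM in sgNS, 27.19 and 25.90 in sgDDX6.1, and 24.90 and 25.71 in sgDDX6.2. The sgNS and sgDDX6.2 libraries overlapped, and both sgDDX6.1 libraries lay above them. The log2 fold change of TNRC6C over both guides was 0.03 (95% interval -0.08 to 0.14, adjusted p = 0.601). After a length trend was removed it was called (0.10, adjusted p = 0.0494). The summed GW182 level was 62.2 ± 0.0566 TPM (SD, n = 2) with sgNS, 66.5 ± 3.06 with sgDDX6.1 and 63.9 ± 1.28 with sgDDX6.2. TNRC6A held 47.7%, 50.8% and 50.3% of it.

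Of the processing factors, DROSHA rose and DICER1 and DGCR8 were not called. DROSHA, the nuclear enzyme that starts processing, had 28.70 and 28.05 TPM in sgNS, 33.58 and 32.12 in sgDDX6.1, and 29.41 and 29.89 in sgDDX6.2. The sgDDX6.1 libraries lay highest, and those of sgDDX6.2 only just above sgNS. It rose by 0.13 over both guides (SE 0.05, adjusted p = 0.0281) and by 0.20 with sgDDX6.1 (adjusted p = 0.0071). With sgDDX6.2 the log2 fold change was 0.06 (adjusted p = 0.349), called after a length or GC trend was removed (0.12 and 0.11, adjusted p = 0.0322 and 0.0233). The call over both guides was lost without sgNS replicate 1, sgNS replicate 2, sgDDX6.2 replicate 1 or sgDDX6.2 replicate 2 (adjusted p = 0.0712, 0.15, 0.0633 and 0.0862).

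DICER1, which carries the 4 let-7 matches printed above, had 33.07 and 32.03 TPM in sgNS, 37.38 and 33.68 in sgDDX6.1, and 33.83 and 33.58 in sgDDX6.2. All sgDDX6 libraries lay above both sgNS libraries. The log2 fold change was 0.09 over both guides (95% interval -0.03 to 0.20, adjusted p = 0.173). It was called without sgDDX6.1 replicate 2 (0.12, adjusted p = 0.0381) and after a length or GC trend was removed (0.17 and 0.22, adjusted p = 0.00327 and 0.000244), as it then was with each guide alone.

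DGCR8, whose mRNA holds miR-3618 and miR-1306, had 28.18 and 30.39 TPM in sgNS, 30.80 and 29.24 in sgDDX6.1, and 26.43 and 28.56 in sgDDX6.2. The sgNS libraries overlapped with those of each DDX6 guide, and both sgDDX6.2 libraries lay below both sgDDX6.1 libraries. The log2 fold change of DGCR8 over both guides was -0.03 (95% interval -0.15 to 0.10, adjusted p = 0.69) and it was not called. With sgDDX6.2 it was called lower after a GC trend was removed (-0.13, adjusted p = 0.0335).

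**Figure D3:**
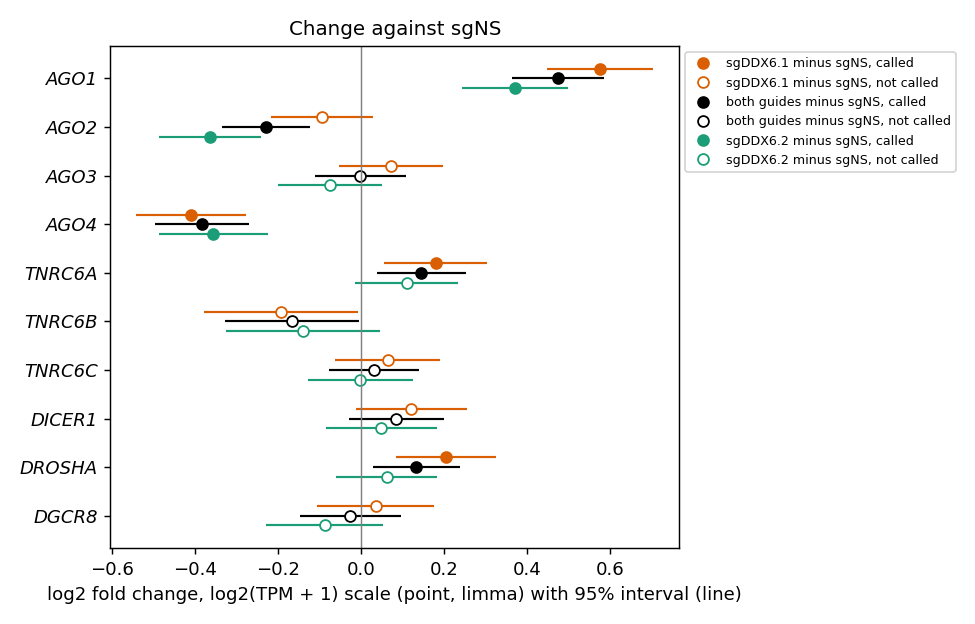
Log2 fold change against sgNS on the log2(TPM + 1) scale (x axis) for each gene, for each DDX6 guide and for both, with its 95% interval (lines). Filled points passed an adjusted p of 0.05. AGO1 and AGO4 are the genes called with both guides, at 0.58 and 0.37 and at -0.41 and -0.36.

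Single guides gave 4 called genes with sgDDX6.1 (AGO1, TNRC6A and DROSHA higher, AGO4 lower) beside 61.6% of all genes tested (31.8% higher, 29.7% lower). With sgDDX6.2 there were 3 (AGO1 higher, AGO2 and AGO4 lower) beside 64.2% (31.5% higher, 32.7% lower). Both comparisons share the sgNS libraries. Set directly against each other, sgDDX6.2 minus sgDDX6.1, AGO2 and AGO1 differed, 2 of 10 genes, both lower, beside 35.6% of all genes tested (18.6% lower). AGO2 was lower with sgDDX6.2 by a log2 difference of -0.27 (SE 0.06, adjusted p = 0.00356) and AGO1 by -0.20 (SE 0.06, adjusted p = 0.0191). The AGO1 difference was not called without sgDDX6.1 replicate 1, sgDDX6.2 replicate 1 or sgDDX6.2 replicate 2 (adjusted p = 0.0965, 0.103 and 0.0996). AGO3 and DROSHA had differences of -0.15 and -0.14 that were not called (adjusted p = 0.0659 and 0.0637), although both were with the replicate number as a block (adjusted p = 0.048 and 0.0396). DROSHA was also called after a length or GC trend was removed (-0.12 and -0.14, adjusted p = 0.0498 and 0.0171), and DGCR8 after a GC trend was removed (-0.16, adjusted p = 0.0243). AGO4 and TNRC6B had differences of 0.05 each (adjusted p = 0.511 and 0.662). Beside these values, 9 of the 10 genes were higher in sgDDX6.1 replicate 1 than in replicate 2, with a median log2 gap of 0.10. The gap was 0.10 over 1045 tested genes with a transcript of at least 7000 bases and 0.04 over all genes. In sgNS and sgDDX6.2, 5 and 1 of the 10 were higher in replicate 1. Of all genes tested, 65.9% were higher in replicate 1 with sgDDX6.1, 49.3% with sgNS and 42.3% with sgDDX6.2. The part of the sgDDX6.1 replicate gap in the differences between guides was not tested.

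In order of level, sgNS cells had most AGO4 (50.8 ± 0.58 TPM) and AGO2 (48.2 ± 1.03), then DICER1 (32.55 ± 0.735), TNRC6A (29.7 ± 0.0566), DGCR8 (29.3 ± 1.56), DROSHA (28.4 ± 0.46), TNRC6C (25.3 ± 0.099), AGO3 (22.3 ± 0.106), AGO1 (22 ± 0.431) and TNRC6B (7.16 ± 0.099; SD, n = 2). TPM is per transcript length, so genes can be set side by side, within the limits of the transcript model used. TNRC6A and DGCR8, DGCR8 and DROSHA, and AGO3 and AGO1 overlapped between libraries. With sgDDX6.1, AGO1 had moved up to stand between TNRC6A and DROSHA and overlapped with both, and AGO2 stood above AGO4. With sgDDX6.2, AGO1 stood between DROSHA and DGCR8 and AGO4 was again the most abundant. In sgNS the genes other than TNRC6B lay in the middle of the range: 69.3% of tested genes had a lower mean than AGO4 and 44.9% than AGO1. TNRC6B lay lower, with 21.2% of tested genes below it.

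**Figure D4:**
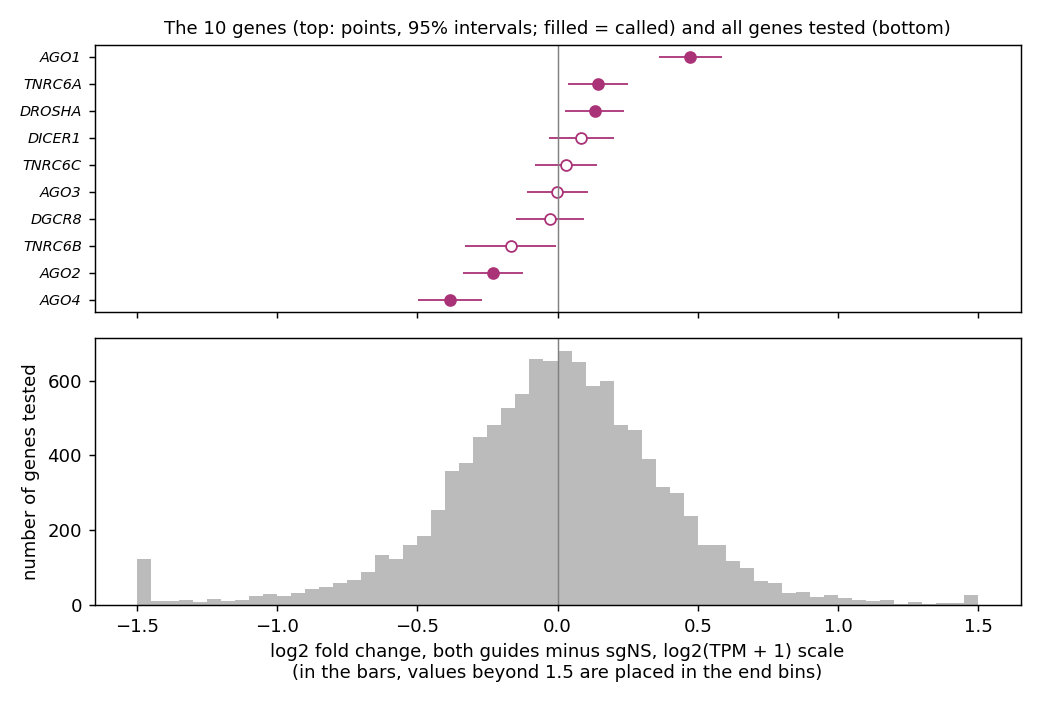
Top, log2 fold change of each of the 10 genes over both guides with its 95% interval (lines), filled where called; bottom, the number of the 11151 genes tested at each log2 fold change. AGO1 at 0.47 and AGO4 at -0.38 lie farther out than 80.7% and 71.8% of the genes tested, and the other 8 genes lie nearer to 0.

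The genes nearest to AGO1 in pattern, by Euclidean distance over the 6 libraries in log2(TPM + 1) minus the sgNS mean, included THRA (distance 0.06) and BOLA3 (0.07), out of 9288 candidates. THRA, a thyroid hormone receptor, had 15.52 and 15.73 TPM in sgNS, 25.02 and 22.10 in sgDDX6.1, and 20.45 and 20.23 in sgDDX6.2. BOLA3, of mitochondrial iron-sulfur cluster assembly, had a log2 fold change of 0.49.

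Other factors of microRNA biogenesis, export and turnover were split. Of 25 tested, 7 rose and 10 fell (68% called, median log2 fold change -0.06), beside 66.7% of all genes. SRRT (also known as ARS2), which links the cap-binding complex to primary microRNA processing, went from 146 ± 3.27 TPM (SD, n = 2) in sgNS to 208 ± 4.55 with sgDDX6.1 and 189.98 ± 6.52 with sgDDX6.2. SAFB2 rose by 0.39 and HNRNPA2B1 by 0.32. ERH, a small DGCR8-binding protein, went from 606 ± 21.4 TPM to 496 ± 4.56 and 453 ± 8.85. PAPD4, a cytoplasmic poly(A) polymerase that can add bases to microRNAs, fell by 0.39 and the RNA-editing enzyme ADAR by 0.24. XPO5, which exports the hairpin to the cytoplasm, had a log2 fold change of 0.04 over both guides (adjusted p = 0.341), with a rise of 0.19 under sgDDX6.1 (adjusted p = 0.00176) and a fall of 0.11 under sgDDX6.2 (adjusted p = 0.0336). DICER1's RNA-binding partner TARBP2 rose by 0.29. Between the guides, 12 of the 25 were lower with sgDDX6.2 and 0 higher (48% called), beside 35.6% of all genes called, 18.6% lower and 17% higher. No alternative was run for this count, and the share of all genes called was 20.3% to 23.2% without sgDDX6.1 replicate 1, sgDDX6.2 replicate 1 or sgDDX6.2 replicate 2.

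Among genes for loading and accompanying Argonautes, the largest rises were in chaperone mRNAs. Of 23 tested, 11 rose and 4 fell (65.2% called, median 0.05), and the share called was near the 66.7% of all genes (33.8% higher, 32.9% lower). HSPA8, a chaperone that with HSP90 helps load small RNAs into Argonautes, went from 762 ± 8.8 TPM (SD, n = 2) in sgNS to 2185 ± 18.7 with sgDDX6.1 and 1984 ± 6.34 with sgDDX6.2. The HSP90 gene HSP90AA1 went from 728 ± 11.8 to 1507 ± 25.8 and 1422 ± 7.57 TPM, and HSP90AB1 rose by 0.64. These chaperones serve many other proteins. Not all chaperone genes of the list rose: PTGES3 and FKBP5 were not called (0.03 and 0.02, adjusted p = 0.584 and 0.695). AJUBA, a LIM-domain protein that binds Argonautes, fell from 7.08 ± 0.573 TPM to 1.46 ± 0.453 and 1.74 ± 0.0495. The ribosomal protein RACK1 fell by 0.46 and FXR1, of the fragile X family, by 0.29.

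Of the 20 tested genes that GW182 proteins contact or that act in the same repression complex, 9 fell, DDX6 itself among them, and 1 rose (50% called, median -0.06). Of all genes tested 66.7% were called, 32.9% lower and 33.8% higher, so the share called was lower in this list. PAN2, the catalytic subunit of the PAN2-PAN3 deadenylase, had 21.2 ± 0.912 TPM (SD, n = 2) in sgNS, 10.7 ± 0.438 with sgDDX6.1 and 10.2 ± 0.735 with sgDDX6.2. PABPC1, which coats the poly(A) tail, fell by 0.66. EIF4E2, a cap-binding repressor of translation, rose by 0.36. CNOT1, the scaffold to which both TNRC6 proteins and DDX6 bind, had a log2 fold change of 0.0046 (adjusted p = 0.919).

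Known let-7 targets were split. Of 21 tested, DICER1 among them, 5 rose and 9 fell (66.7% called, as in the whole table), with a median of -0.02. MYC fell by 0.77, the transcription factor PLAGL2 by 0.50 and the ribonucleotide reductase subunit RRM2 by 0.35. IGF2BP2 rose by 0.21 and THBS1 by 0.36, neither of them called with sgDDX6.1 alone (adjusted p = 0.0772 and 0.189). HMGA1 rose by 0.15, and HMGA1 was not called under quantile normalization (0.03, adjusted p = 0.338). let-7 itself was not measured.

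**Figure D5:**
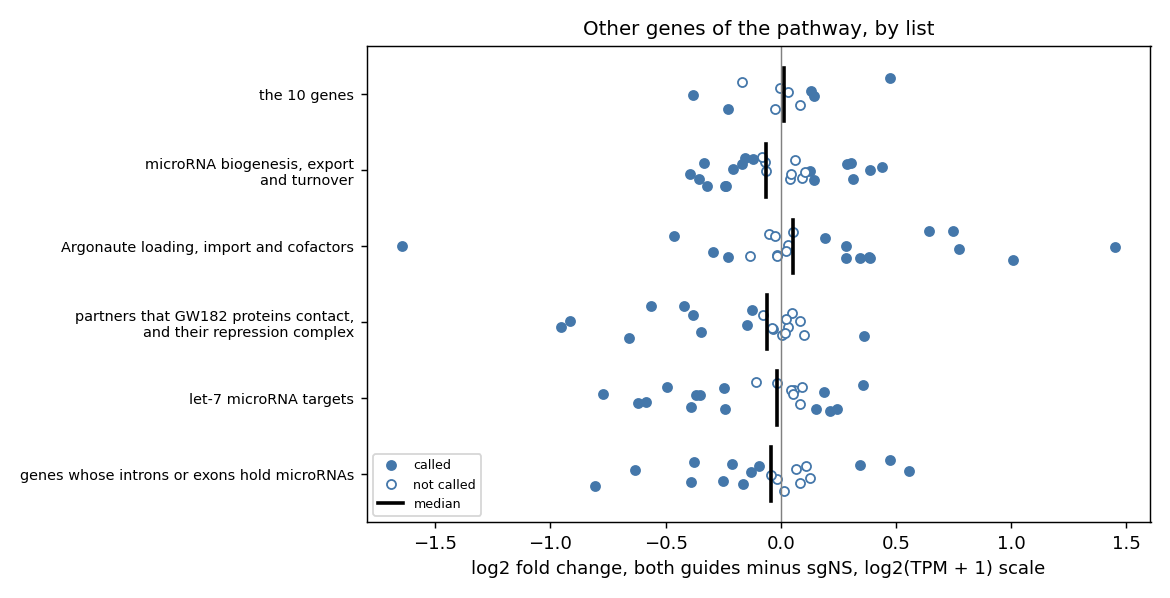
Log2 fold change over both guides (x axis) of the 10 genes and of each tested gene of the 5 pathway lists (points, filled where called), with the list median (vertical bar). Every median lies within 0.07 of 0, and HSPA8 and AJUBA lie farthest out.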

How the data were processed

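Poly(A)+ RNA of 6 Mono-mac-6 libraries was sequenced, 2 per guide, and groups were taken from the labels. The authors deposited TPM with 2 decimals per gene symbol and library. RSEM 1.2.31 and the GRCh38 build are named in the submitters' processing notes. Which aligner and annotation served is not given in the sources used here. Values of TPM are corrected for transcript length and for the library's total, so read depth is unknown. RSEM divides reads that fit several genes, such as paralogs, by its model. Genes with at least 1 TPM in 2 or more libraries (11151 of 18806) were fitted as log2(TPM + 1), a scale that understates changes of low genes, with limma 3.58.1 in R 4.3.3. The model held 3 group means (3 residual degrees of freedom, variance trend), tests were two-sided, and Benjamini-Hochberg adjustment was over all genes within each of 4 contrasts. The procedure was tested on simulated data. GENCODE release 29 (GRCh38) gave positions and transcripts, matching 97.3% of symbols. The RefSeq promoter table matched 9 of the 10 genes, all but AGO2.

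The members and lists were chosen with earlier results of these data known. All 10 members are named. From each list up to 3 genes per direction with the lowest adjusted p over both guides are named, and for the member with the largest change the 3 genes of nearest pattern, of which 1 is not reported here. XPO5, TARBP2, CNOT1, PTGES3, FKBP5, CD14 and other single cell type markers were named after their values were seen. The alternatives tried were a pseudocount of 0.1 or 5, a filter of 5 TPM or none, quantile normalization, median centring, limma without trend or with robust variance, the replicate number in the model, only the groups compared, and each library left out. Removal of a loess trend on transcript length or GC content was added after the data were seen.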

Additional observations from a re-analysis of the deposited data

Results flagged for a closer look

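A pair of genes differed between the DDX6 guides by a direct test (limma, sgDDX6.2 minus sgDDX6.1). AGO2 was lower with sgDDX6.2, with a log2 difference of -0.27 (adjusted p = 0.00356), and both sgDDX6.2 libraries lay below both sgDDX6.1 libraries. AGO1 had a log2 difference of -0.20 (adjusted p = 0.0191), with both sgDDX6.2 libraries again the lower ones, and this difference was not called in 3 of the fits that left out a library. DDX6 mRNA did not separate the guides in the same contrast (-0.0076, adjusted p = 0.918).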

How the results depend on the processing

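AGO1 and AGO4 kept their direction and their call over both guides and with each guide under every alternative run, and AGO2 over both guides, with sgDDX6.2 and between the guides. Over both guides the log2 fold change ranged from 0.41 to 0.58 for AGO1, from -0.42 to -0.31 for AGO4 and from -0.26 to -0.12 for AGO2. The number of the 10 genes called over both guides was 5 in the main fit (3 higher, 2 lower). After a length trend was removed it was 8 (6 higher, 2 lower). It fell when 1 sgNS or 1 sgDDX6.2 library was left out, and rose when 1 sgDDX6.1 library was. With sgDDX6.1 it was 7 after the length trend was removed (6 higher, 1 lower). With sgDDX6.2 it was 6 after a length trend (4 higher, 2 lower) and 7 after a GC trend (4 higher, 3 lower) was removed. Between the guides it was 4 after a GC trend was removed, all lower, and fell when sgDDX6.1 replicate 1 or 1 sgDDX6.2 library was left out. Against sgNS, the share of all genes called in the main fit was 66.7% over both guides, 61.6% with sgDDX6.1 and 64.2% with sgDDX6.2. These shares moved by no more than 1.5 times under any alternative run. The counts of the 10 genes after a trend was removed lie within that bound. They are therefore not read as above the share of all genes. The share of all genes called between the guides, 35.6%, was 19.2% with no filter and 20.3% to 23.2% without sgDDX6.1 replicate 1, sgDDX6.2 replicate 1 or sgDDX6.2 replicate 2. Under the other alternatives, removal of a GC trend among them, it moved by no more than 1.5 times. Over both guides, no count of the 5 lists moved by more than 1.5 times under any alternative run. Counts of the lists with single guides and between the guides had no alternatives run.

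Values near 0 changed sign, and the cause was not tested. AGO3 over both guides was 0.021 under quantile normalization, 0.0036 under median centring, 0.14 after either trend was removed, and between -0.0062 and 0.0031 with a library left out. AGO3 with sgDDX6.2 was 0.073 and 0.092 after a length or GC trend was removed. AGO2 with sgDDX6.1 was 0.003 after the length trend was removed. DGCR8 over both guides was 0.016 after the length trend was removed and between -0.079 and 0.026 with a library left out, and with sgDDX6.1 between -0.018 and 0.088. TNRC6C with sgDDX6.2 was 0.010 under quantile normalization, 0.013 under median centring, 0.081 after the length trend was removed and between -0.024 and 0.020 with a library left out. TNRC6B with sgDDX6.2 was 0.00057 after the length trend was removed. Between the guides, TNRC6B was -0.022 under quantile normalization and between -0.0098 and 0.11 with a library left out, AGO4 between -0.027 and 0.14 and DICER1 between -0.15 and 0.0010. DDX6 between the guides was 0.025 under quantile normalization, 0.013 under median centring, 0.021 and 0.037 after a length or GC trend was removed, and between -0.040 and 0.025 with a library left out.

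The replicate numbers recur across guides. The replicates' deviations from their group means correlated at 0.262, 0.0977 and 0.0399 for the 3 pairs of groups. Whether libraries with the same number share more than the number was not tested. As a block, the number lowered the limma adjusted p over both guides for AGO1 (6.75e-06 to 4.57e-07) and AGO4 (4.79e-05 to 2.47e-06). With the replicate number as a block, 5, 4 and 3 genes were called over both guides, with sgDDX6.1 and with sgDDX6.2, as without it. Between the guides 4 were called, AGO3 and DROSHA in addition (adjusted p = 0.048 and 0.0396). TPM carries no read depth, so counting error could not be told apart from the spread between libraries.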

Other observations

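Genes whose introns or exons hold microRNAs can carry microRNA precursors in their transcripts. Of 19 tested, 3 rose and 9 fell over both guides (63.2% called, beside 66.7% of all genes tested), with a median log2 fold change of -0.04. SREBF1, the host of miR-33b, went from 32.7 ± 1.12 TPM (SD, n = 2) in sgNS to 14.2 ± 0.0566 with sgDDX6.1 and 23.3 ± 0.474 with sgDDX6.2. CTDSP2, a host of miR-26a, fell by 0.63 and MCM7, the host of the miR-106b cluster, by 0.39. IARS2 rose by 0.47, GPC1 by 0.56 and PPARGC1B by 0.35. A host mRNA is no measure of its microRNA.

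Most of the 10 microRNA pathway genes have long transcripts. Over 1045 tested genes with a transcript of at least 7000 bases, the median log2 fold change was -0.05 over both guides, -0.03 with sgDDX6.1 and -0.07 with sgDDX6.2. Over all genes tested it was 0.0008, 0.0067 and -0.01. All of the 10 genes except DROSHA (5305 bases) and DGCR8 (4514 bases) have a transcript of at least that length. The part of length in their changes was not tested beyond the removal of a length trend.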
